A study of Mus musculus with 7 samples.

Results

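The genes described here are 10 genes that respond to progesterone or carry its signal from cell to cell in the mammary gland: Tnfsf11, Wnt4, Areg, Calca, Cited1, Greb1, Id4, Ccnd1, Tnfrsf11a and Stat5a. They were found by name, 10 of 37074 names given to the 56605 probes of the array, and 16 probes carried them. They are set beside Pgr, the gene of the progesterone receptor. Of these 16 probes, 13 were among the 34284 probes kept for the test, for which the gland signal cleared the background on all arrays of wild-type, of PRA transgenics or of both. These 13 covered 9 of the 10 genes. The exception was Tnfsf11. Total RNA of whole mammary glands from 3 wild-type FVB mice and 4 PRA transgenics was labeled with Cy5, and each array carried 1 animal. The second channel held Universal Mouse Reference RNA labeled with Cy3, made from 11 mouse cell lines. All mice were nulliparous and of 20 to 25 weeks, killed in diestrus, and the RNA of each came from 1 abdominal gland without its lymph nodes. The PRA transgenics are bigenic: GAL-4 under the cytomegalovirus (CMV) promoter drives a UAS-PR-A transgene, which adds an extra A form of the receptor, while the wild-type mice were littermates with endogenous receptor alone. The CMV promoter is not specific to the mammary epithelium. In a whole gland, fewer cells of a type and less RNA per cell cannot be told apart.

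Progesterone acts in the mammary gland mainly on a subset of luminal cells that carry estrogen and progesterone receptors. These hormone-sensing cells mostly do not divide themselves but release factors that act on their neighbors. RANKL, encoded by Tnfsf11, and WNT4 are the classical paracrine signals of progesterone, and amphiregulin, encoded by Areg, is the classical one of estrogen. The comparison of PRA transgenics with wild-type asks whether the steady levels of these signals, their receptors and their targets differ when the A form of the receptor predominates.

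Values are log2 ratios of Cy5 to Cy3, so that a value of 1 means that the gland gave a signal 2-fold that of the reference. Fold changes are PRA transgenic minus wild-type on this log2 scale, with the standard error (SE) of limma, and adjusted p-values are Benjamini-Hochberg values over all 34284 probes. Replicates are animals, and their number limits the precision. In Cy5, between 56.6% and 66.2% of probes were well above background on the 7 arrays, and no spot was saturated. All arrays lay on 1 slide, with wild-type in row 1 and PRA transgenics in row 2, so that row and genotype cannot be told apart. Markers of the labeled tissue were present, and their mean log2 ratios lay between 1.64 and 2.31 for luminal epithelium, between 2.62 and 3.07 for basal epithelium and between 5.71 and 6.45 for adipocytes. Wild-type replicate 1 stood apart with mean log2 ratios of 2.16 for 7 T cell markers and 0.71 for the 4 B cell markers tested, against at most 0.43 and -0.87 on the other arrays. The mean of skeletal muscle markers was between 1.71 and 3.30 on wild-type replicates 1 and 3 and PRA transgenic replicate 4, and between -0.95 and -0.61 on the other 4 arrays.

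None of the 9 genes tested differed between PRA transgenics and wild-type beyond the spread between animals. No gene of the 9 had an adjusted p under 0.05, beside 0.0117% of all probes, and the lowest adjusted p of limma among them was 0.611. At an unadjusted P under 0.05 the count was also 0 of 9, beside 9.02% of all probes, and with a change of 1.5-fold added it was 0 of 9, beside 4.52%. The genotypes did not separate completely for any of the 9, beside 9.95% of all probes. By sign alone 3 genes were higher and 6 lower in PRA transgenics, with a median log2 fold change of -0.21 against 0.02 over all probes. With another background correction (normexp and loess) the median was 0.12 against 0.006, so its sign turned with the processing. The spread within a genotype was wide for most of the genes. For all 9 the SD of the log2 ratio within genotypes was above the median of all probes (0.27). For 6 of 9 fewer than 10% of probes had a larger one, while for Cited1, Stat5a and Tnfrsf11a 41.7%, 24.3% and 23.8% did. A wide spread was not particular to these genes, since Pgr shared it: 1.13% of probes had a larger SD than its brightest probe.

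**Figure D1:**
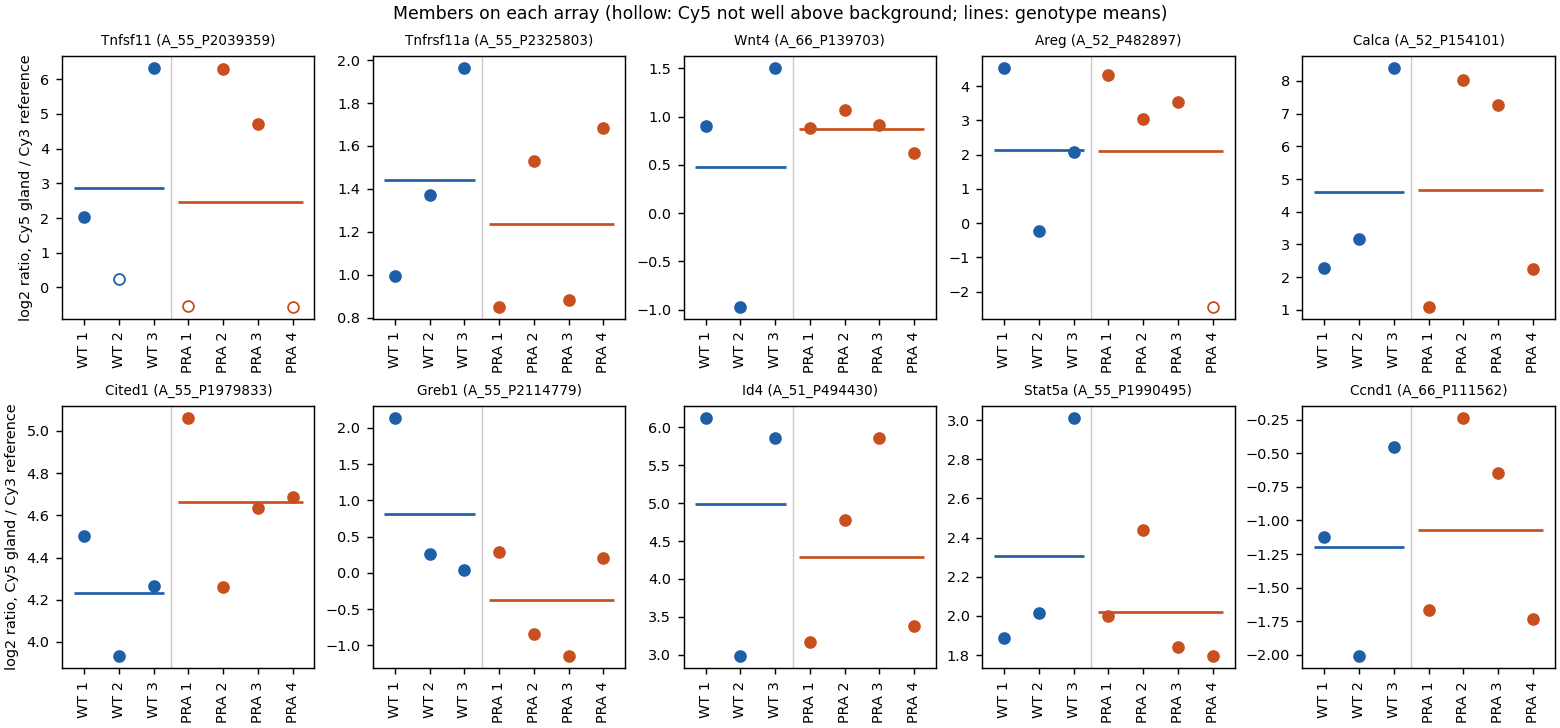
Log2 ratio of gland (Cy5) to reference (Cy3) of 1 probe for each of the 10 genes on the 3 wild-type (blue) and 4 PRA transgenic (orange) arrays, each panel with its own vertical scale. Hollow points are spots whose Cy5 signal was not well above background, lines are genotype means, and for Calca the probe at the end of the longer transcript is shown. The genotypes overlap in every panel, and Tnfsf11 and Calca are both high on wild-type replicate 3 and PRA transgenic replicates 2 and 3.

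The paracrine ligands come first. Tnfsf11, whose product RANKL makes neighboring epithelial cells divide, was read by 2 probes on the minus strand of chromosome 14 of mm9, at 78677444 to 78677503 (A_55_P2039359) and at 78677959 to 78678018 (A_52_P488947). Both were dim on some arrays of each genotype, which is why neither entered the main test. Their first 30 bases are shown to identify where the signal was read, since the levels of Tnfsf11 rest on them.
Tnfsf11 A_55_P2039359: gatacataataggctactgaaatctgtcag
Tnfsf11 A_52_P488947: gtcattgcaaagaaatgatagtgtgaaggg
On the brighter probe the log2 ratio was 2.03, 0.23 and 6.33 in wild-type replicates 1, 2 and 3. It was -0.54, 6.29, 4.71 and -0.56 in PRA transgenic replicates 1 to 4. High and low animals were thus found in both genotypes, and Cy5 was well above background on wild-type replicates 1 and 3 and PRA transgenic replicates 2 and 3. The second probe gave 1.67, -0.02 and 5.41 in wild-type and -0.59, 4.89, 4.25 and -0.17 in PRA transgenics, with the same 5 highest arrays in the same order and the same 4 arrays above background. Cy3 stayed near background on all arrays for either probe, so the ratio rests on the gland channel. In Cy5 alone, PRA transgenic replicate 2 was at least 28.9-fold higher than the highest limit of the 3 arrays below background on the brighter probe. On the second probe wild-type replicate 3 was at least 11.4-fold higher. The limit on each dim array is the higher of its own signal and the lowest signal well above background there. Without the filter on dim probes, the log2 fold changes were -0.39 (adjusted p = 0.96) and -0.26, and in Cy5 alone they were 0.54 and 0.35, so even the sign of the genotype difference was not fixed.

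Calca is read on 2 different transcripts, because alternative splicing joins its first exons either to a calcitonin exon or to the exons of calcitonin gene-related peptide (CGRP) that lie further downstream. Calcitonin in the mammary epithelium is a known progesterone response of pregnancy. Probe A_51_P290826 (chromosome 7 of mm9, 121776832 to 121776891, minus strand) carried the accession of the calcitonin form, and A_52_P154101 (121775204 to 121775263, minus strand) that of the CGRP form. For each probe 30 bases are shown to mark the 2 ends, and capitals mark the polyadenylation signal AATAAA.
Calca A_51_P290826: ggcagtcatctggcttcctagtagagcttc
Calca A_52_P154101: gactctgtatccAATAAAcatgacagcatg
The CGRP-form probe gave log2 ratios of 2.29, 3.17 and 8.39 in wild-type replicates 1, 2 and 3. In PRA transgenic replicates 1 to 4 it gave 1.1, 8.02, 7.27 and 2.26. The 3 arrays with the highest values were the 3 with the highest Tnfsf11, 1 of wild-type and 2 of PRA transgenics, and the genotype means of 4.61 and 4.66 were close. Its log2 fold change was 0.05 with an SE of 2.18 (adjusted p = 0.997), and its 95% interval ran from -5.07 to 5.17. The close means depend on a dim reference channel. Log2 Cy3 was 5.25 on PRA transgenic replicate 1, the array with the lowest ratio, and 2.13 to 2.74 on the other arrays. Log2 Cy5 was 6.35 on that array, above wild-type replicates 1 and 2 (5.03 and 5.48). In Cy5 alone the log2 fold change was 1.09 with an SE of 1.87 (adjusted p = 0.912).

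The calcitonin-form probe, the brighter one in Cy5, looked different by its ratio: 4.48, 6.0 and 4.83 in wild-type and 3.87, 5.13, 5.15 and 4.32 in PRA transgenics. By this measure the log2 fold change was -0.49 with an SE of 0.46 (adjusted p = 0.803). Its Cy5 signal alone told of the same 3 arrays as before. The log2 Cy5 intensity was 6.78, 9.06 and 14.36 in wild-type replicates 1, 2 and 3, and 6.82, 15.41, 15.02 and 7.0 in PRA transgenic replicates 1 to 4. After scaling to the 75th percentile of each array, the highest and lowest Cy5 signals were 466-fold apart. The Cy3 signal of the same spots moved with it, although the reference RNA is the same on every array. Log2 Cy3 was 2.3, 3.06 and 9.52 in wild-type and 2.94, 10.28, 9.87 and 2.68 in PRA transgenics, and it was well above background only on wild-type replicate 3 and PRA transgenic replicates 2 and 3. That Cy3 range of 7.98 was the largest of all 34284 probes, whose median was 0.55, and the cause was not tested. For the calcitonin-form probe the ratio to the reference therefore hides a difference between animals that Cy5 alone shows. In Cy5 the log2 fold change was 1.20 with an SE of 2.84 (adjusted p = 0.941).

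**Figure D2:**
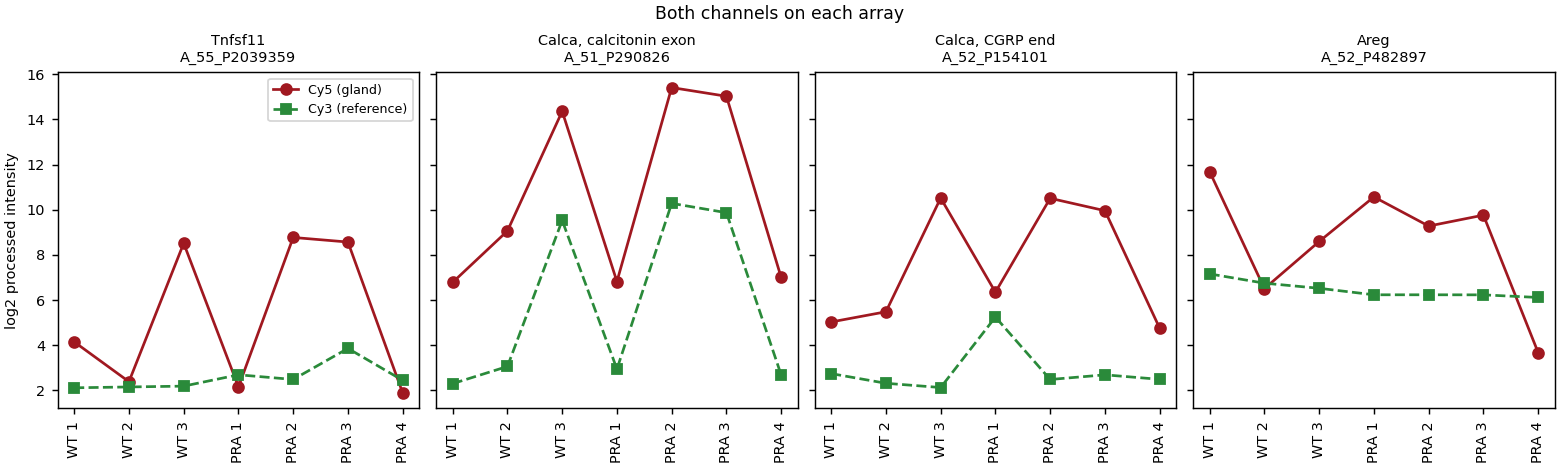
Log2 processed intensity of both channels for 4 probes on the 7 arrays: Cy5 is the gland and Cy3 the common reference, and lines only connect the points of a channel. For Tnfsf11 and the CGRP-form probe of Calca, Cy5 is highest on wild-type replicate 3 and PRA transgenic replicates 2 and 3, while Cy3 stays at 5.25 or below on all arrays. For the calcitonin-form probe both channels rise there, and for Areg Cy5 falls to 3.67 on PRA transgenic replicate 4.

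On the 3 arrays with high Tnfsf11 and Calca, the mean log2 ratio of luminal markers was 2.16, 2.24 and 1.64, within the range of 1.68 to 2.31 of the other 4 except for the lowest. The mean over 6 proliferation markers was -1.74, -2.25 and -3.04 there, and between -3.81 and -2.83 on the other 4. Their part in these levels was not tested. These 3 arrays, chosen after their Tnfsf11 values were seen, were also the 3 highest for Wnt4 and Ccnd1 by log2 ratio and for Calca and Ccnd1 in Cy5 alone. That is 2 of 9 genes in either measure, beside 6.41% and 6.68% of all probes.

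Wnt4, a secreted ligand of canonical Wnt signaling that progesterone induces, was read by 1 probe (A_66_P139703, chromosome 4, 136855342 to 136855401). Its log2 ratio was 0.90, -0.97 and 1.50 in wild-type and 0.88, 1.07, 0.91 and 0.63 in PRA transgenics. The 4 PRA transgenics lay close together, inside the range of wild-type, in which replicate 2 was far below all other arrays. This gave a log2 fold change of 0.39 with an SE of 0.54 (adjusted p = 0.879), which without wild-type replicate 2 turned to -0.33.

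Areg encodes amphiregulin, an EGF receptor ligand that is shed from hormone-sensing cells and drives growth of the ducts. Its single probe lies in the coding sequence (A_52_P482897, chromosome 5, 91570090 to 91570149, plus strand). The whole probe is shown because Areg had the closest relation to Pgr.
Areg A_52_P482897: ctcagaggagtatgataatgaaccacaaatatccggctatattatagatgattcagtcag
The log2 ratio was 4.53, -0.24 and 2.07 in wild-type and 4.33, 3.04, 3.53 and -2.44 in PRA transgenics. Each genotype held an animal with a high level and an animal with a low one, and in PRA transgenic replicate 4 the gland signal was not well above background. In Cy5 alone wild-type replicate 1 was at least 236-fold higher than that array. Between genotypes the log2 fold change was -0.00 with an SE of 1.80 (adjusted p = 1.00), and the 95% interval from -4.24 to 4.24 leaves changes of several fold in either direction undetectable with these animals. It moved to 1.52 without PRA transgenic replicate 4 and to 1.20 without wild-type replicate 1.

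The receptor of RANKL and the transducer of prolactin varied less. Tnfrsf11a, which encodes RANK, had 3 probes on chromosome 1, and on the brightest (A_55_P2325803, 107741892 to 107741951) the log2 ratio was 0.99, 1.37 and 1.96 in wild-type and 0.85, 1.53, 0.88 and 1.69 in PRA transgenics. That is a log2 fold change of -0.21 with an SE of 0.31 (adjusted p = 0.890). The other probes gave -0.50 and -0.37, so all 3 were lower by sign, and none passed. Unlike Tnfsf11, the receptor was well above background on all 7 arrays.

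Stat5a, the transcription factor that prolactin activates in the alveolar lineage, had 2 probes on chromosome 11. The probe at 100746373 to 100746432 (A_55_P1990495) gave log2 ratios of 1.89, 2.01 and 3.01 in wild-type and 2.00, 2.44, 1.84 and 1.79 in PRA transgenics. Its log2 fold change was -0.29 with an SE of 0.30 (adjusted p = 0.83), and wild-type replicate 3 alone set the sign, with 0.07 when it was left out. The second probe lies in the sequence for the C terminus (A_66_P115018, 100745240 to 100745299) and is shown because it went the other way. It is rich in G and C, which make up 63.3% of it.
Stat5a A_66_P115018: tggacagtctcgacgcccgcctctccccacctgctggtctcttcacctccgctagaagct
Its log2 ratio was 0.05, -0.10 and 0.07 in wild-type and 0.16, 0.18, 0.07 and 0.08 in PRA transgenics. This was the only 1 of the 13 member probes kept on which the genotypes did not overlap, beside 9.95% of all probes, with a log2 fold change of 0.12 and an SE of 0.11 (adjusted p = 0.799). It separated them only narrowly, with 0.0685 on wild-type replicate 3 and 0.0747 on PRA transgenic replicate 3. In Cy5 alone its log2 fold change was 0.98 with an SE of 0.21 (adjusted p = 0.333), but log2 Cy3 of the same spots was also lower in wild-type (9.77 to 10.49) than in PRA transgenics (10.53 to 11.01). By its unadjusted P and 1.5-fold it was 1 of 13 member probes past that threshold in Cy5 alone, beside 3.41% of all probes, and by its ratio it was not past it. The 2 Stat5a probes differed in sign, and neither had an adjusted p under 0.05.

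Greb1, a classical target of the estrogen receptor that is also induced through the progesterone receptor, had the lowest P of the 9. On probe A_55_P2114779 (chromosome 12, 16678455 to 16678514, minus strand) the log2 ratio was 2.14, 0.26 and 0.04 in wild-type. It was 0.29, -0.84, -1.15 and 0.21 in PRA transgenics. The genotypes overlapped through PRA transgenic replicates 1 and 4, and the highest value was that of wild-type replicate 1, the array with the high T and B cell markers. PRA transgenics were lower by a log2 fold change of -1.19 with an SE of 0.60 (adjusted p = 0.611), and the value shrank to -0.53 without wild-type replicate 1. Leaving out wild-type replicate 3 brought it past an unadjusted P under 0.05 and 1.5-fold, at -1.58 (adjusted p = 0.668). The second Greb1 probe (A_55_P2932313) did not clear the background on any array.

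Cited1, a coactivator found in hormone-sensing luminal cells, had the smallest spread within genotypes of the 9 genes. On A_55_P1979833 (chromosome X, 99442776 to 99442835) the log2 ratio was 4.50, 3.93 and 4.27 in wild-type and 5.06, 4.26, 4.64 and 4.69 in PRA transgenics. All 4 PRA transgenics but replicate 2 were above every wild-type array. Its log2 fold change was 0.43 with an SE of 0.22 (adjusted p = 0.621), with a 95% interval from -0.09 to 0.95. In Cy5 alone it was 0.87 (adjusted p = 0.574).

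Id4, an inhibitor of basic helix-loop-helix factors, is known from basal cells and responds to progesterone. The log2 ratio on A_51_P494430 (chromosome 13, 48359180 to 48359239) was 6.13, 2.98 and 5.86 in wild-type and 3.16, 4.78, 5.86 and 3.38 in PRA transgenics. Both genotypes covered nearly the same range, and Cy3 stayed near background throughout. Between genotypes the log2 fold change was -0.70 with an SE of 0.95 (adjusted p = 0.877). Ccnd1 encodes cyclin D1, which carries cells from G1 into S phase. On A_66_P111562 (chromosome 7, 152116202 to 152116261) its log2 ratio was -1.12, -2.01 and -0.45 in wild-type and -1.67, -0.23, -0.64 and -1.73 in PRA transgenics. It was below the reference on every array, with the values nearest to 0 on the arrays of high Tnfsf11. For Ccnd1 the log2 fold change was 0.12 with an SE of 0.49 (adjusted p = 0.969).

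**Figure D3:**
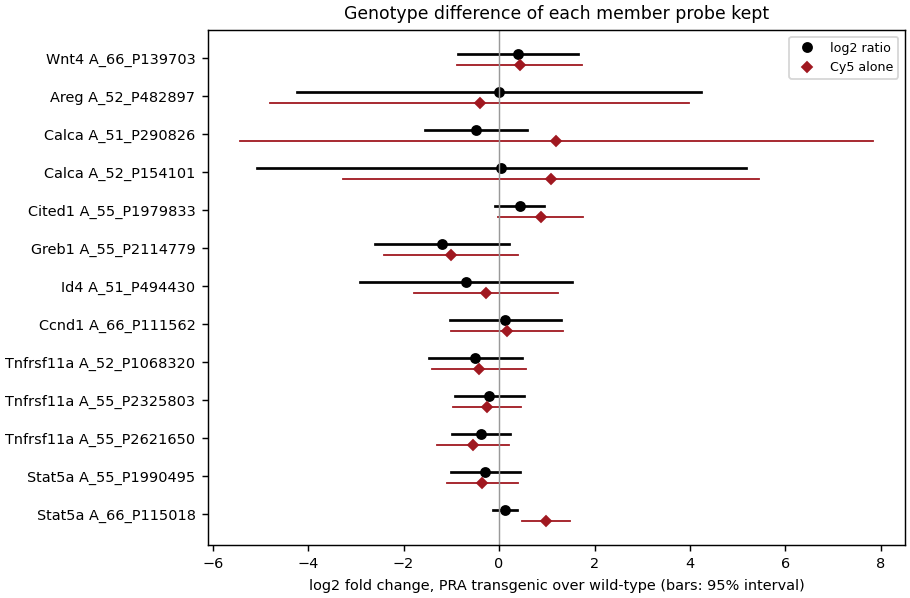
Log2 fold change, PRA transgenic over wild-type, of the 13 member probes kept, with 95% intervals of limma, for the log2 ratio (black) and for Cy5 alone, scaled to the 75th percentile of each array (red). All intervals of the log2 ratio include 0, and they are widest for Areg and the CGRP-form probe of Calca; in Cy5 alone the interval of Stat5a A_66_P115018 does not include 0.

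**Figure D4:**
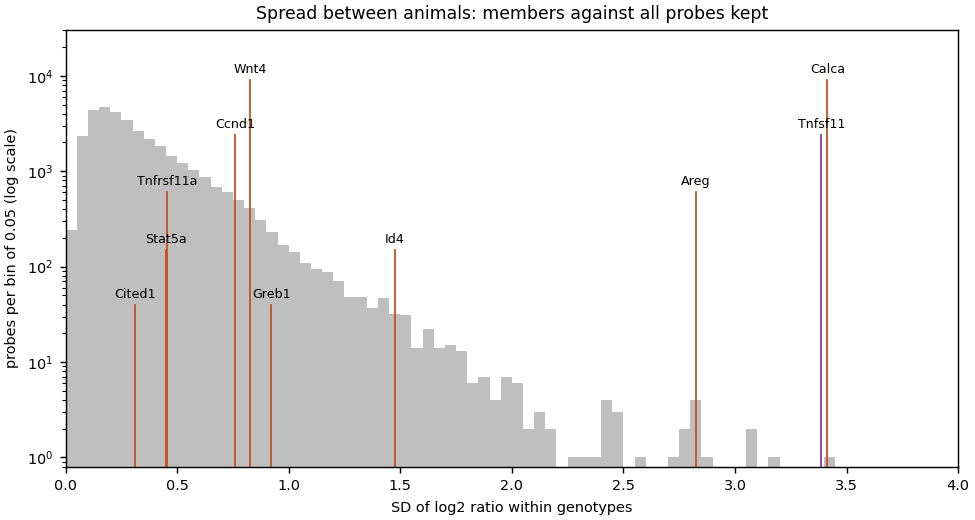
SD of the log2 ratio within genotypes, in bins of 0.05, over all 34284 probes kept (grey, log scale of counts), with vertical lines for the probes of the 10 genes (orange; violet for Tnfsf11, which was not kept). Line heights carry no value. For Calca the CGRP-form probe is drawn, and it lies with Tnfsf11 and Areg far in the upper tail.

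Pgr was then set beside each gene. Its brightest probe (A_55_P2095663, chromosome 9, 8968492 to 8968551) gave log2 ratios of 7.05, 4.30 and 4.04 in wild-type and 5.38, 4.72, 4.49 and 3.32 in PRA transgenics. The log2 fold change was -0.65 with an SE of 0.80 (adjusted p = 0.858). In Cy5 alone it was 0.03 with an SE of 0.83 (adjusted p = 0.995). By either measure the signal called Pgr was not detectably higher in PRA transgenics. Log2 Cy3 of these spots was dim, and lower in wild-type (2.06 to 2.33) than in PRA transgenics (2.48 to 2.91). The other Pgr probes, dim ones included, gave -0.53, -0.46 and -0.22 by ratio and 0.08, 0.19 and 0.55 in Cy5 alone. The last of these (A_66_P104775) lies on the minus strand, opposite to the other Pgr probes, so it cannot be taken to read the Pgr transcript. It was well above background on 1 array of each genotype. Without it, too, the sign for Pgr differed between the ratio and Cy5 alone and was not fixed. A further probe lies in the coding sequence of the DNA-binding domain, which the A and B forms of the receptor share, and is shown because it could read both forms.
Pgr A_55_P2930103: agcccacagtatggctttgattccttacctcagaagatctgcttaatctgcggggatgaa
It gave 4.02, 0.67 and 1.84 in wild-type and 2.09, 2.28, 1.65 and 0.87 in PRA transgenics, and was well above background on 2 arrays of each genotype. Whether the transcript of the transgene contains either probe is not given in the sources used here, so these probes do not check the transgene.

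Areg followed Pgr most closely, with Pearson's r = 0.77 (exact permutation p = 0.0405) and Spearman's rho = 0.93 (exact permutation p = 0.00675) over the 7 arrays. After adjustment over the 9 genes these were 0.364 and 0.0607 in the exact permutation tests, so the relation failed the correction. Pgr and Areg were both highest on wild-type replicate 1 and both lowest on PRA transgenic replicate 4, the 2 arrays farthest from the median of Pgr, and without these r was 0.68. With the mean of each genotype subtracted r was 0.80, and in Cy5 alone it was 0.84. With another background correction (normexp and loess) r was 0.92 and passed (adjusted exact permutation p = 0.0179). Wild-type replicate 1 is also the array with the high T and B cell markers, and the mean of the hormone-sensing list, which itself contains Pgr and Areg, was 4.71 there and 2.83 on PRA transgenic replicate 4. The part of cell content in this relation was not tested.

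Tnfrsf11a went against Pgr, with r = -0.63 (exact permutation p = 0.114, adjusted 0.398), rho = -0.71 (exact permutation p = 0.0881, adjusted 0.396) and r = -0.70 without the same 2 arrays. With the luminal marker mean of each array subtracted from both genes, r was -0.91 (adjusted exact permutation p = 0.0321). For Greb1, r = 0.66 rested on wild-type replicate 1 and fell to 0.09 without the same 2 arrays (exact permutation p = 0.133 over all 7, adjusted 0.398). For Wnt4, Ccnd1, Cited1, Id4, Stat5a and Calca r lay between -0.26 and 0.39 over the 7 arrays and between -0.70 and 0.79 without the same 2, and no adjusted value was under 0.77. Tnfsf11 was not among these genes, because neither of its probes was kept. Without the filter on dim probes its r with Pgr was -0.04 (exact permutation p = 0.938) and its rho 0.07 (exact permutation p = 0.906). These values of Tnfsf11 include arrays below background. Its 3 high arrays had Pgr log2 ratios of 4.04, 4.72 and 4.49, between a lowest value of 3.32 and a highest of 7.05, and the arrays with the highest Pgr, wild-type replicate 1 and PRA transgenic replicate 1, had 2.03 and -0.54 for Tnfsf11.

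**Figure D5:**
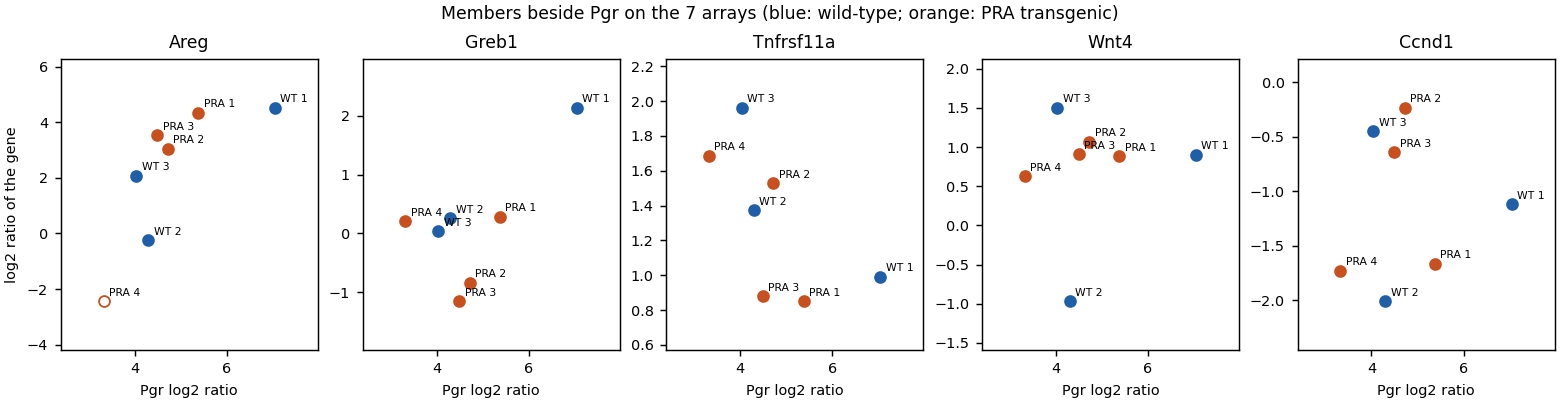
Log2 ratio of 5 of the genes (vertical) against that of Pgr (horizontal) on the 7 arrays, wild-type in blue and PRA transgenic in orange, with the hollow point not well above background. Areg rises with Pgr (r = 0.77), Tnfrsf11a falls (r = -0.63), Greb1 depends on wild-type replicate 1, and Wnt4 and Ccnd1 show no order along Pgr.

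As a description over 7 arrays, the genes whose brightest probe was most like Tnfsf11 among 16013 genes were Parp1 (r = 0.99), Pfas, Uchl3, Zdhhc16 and Nfkb2 (each r = 0.98). Arrays share their reference and slide, and with a few high arrays such an r mostly says which arrays were high. The log2 ratio of Nfkb2, a subunit of NF-kappa-B in the branch that RANK activates, was -1.04, -1.19 and -0.59 in wild-type and -1.32, -0.47, -0.88 and -1.33 in PRA transgenics. It had the same 3 highest arrays as Tnfsf11, which follows from its choice by r, with a far smaller range. A link to RANK was not tested. The genes most like Pgr among 16012 were Ube2l6 and Tgm2 (each r = 0.98), Grk6 and Cyp3a25 (each r = 0.97) and Dntt (r = 0.96).

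The pathways around these genes were followed with 9 lists of 108 genes, of which 95 had a probe kept. None rose and 6 were lower in PRA transgenics at an unadjusted P under 0.05 and 1.5-fold, beside 1.94% of all probes higher and 2.58% lower. None had an adjusted p under 0.05, and the median log2 fold change was -0.11. In RANK signaling 0 of 13 passed. There the lowest P was that of Relb, an NF-kappa-B subunit, with a log2 fold change of -0.50, while the decoy receptor of RANKL, Tnfrsf11b, gave 0.43. In Wnt signaling 1 of 18 passed, the receptor Fzd7, at -0.59 with an SE of 0.24 (adjusted p = 0.539).

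Among the EGF receptor genes 1 of 9 passed, and it was another ligand than Areg. Egf gave 0.19, 0.70 and 1.27 in wild-type and -0.07, -0.42, -0.09 and -0.23 in PRA transgenics, with every wild-type array above every PRA transgenic. Its log2 fold change was -0.92 with an SE of 0.25 (adjusted p = 0.410). In the calcitonin family 1 of 6 passed, Adm, the vasodilator peptide adrenomedullin, at -0.74 with an SE of 0.17 (adjusted p = 0.363) and no overlap. The receptor that CGRP and adrenomedullin share, Calcrl, gave 0.19, and its partner Ramp1 gave -0.36. In prolactin and Stat5 signaling 1 of 10 passed, Socs1, a feedback inhibitor, at -0.63 with an SE of 0.19 (adjusted p = 0.421) and no overlap. The prolactin receptor Prlr gave 0.25.

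Of 7 Id factors and their partners 1 passed. Id1, a relative of Id4, gave log2 ratios of -0.98, -1.26 and -0.93 in wild-type and -1.89, -2.39, -1.70 and -2.18 in PRA transgenics. Its animals lay close together within each genotype and apart between them, with a log2 fold change of -0.98 and an SE of 0.19, and the adjusted p of 0.332 was the lowest in all 9 lists. Of 11 genes of D cyclins and G1 control 0 passed, and the lowest P was that of Rb1, the retinoblastoma gene, at -0.12. Of 10 genes of the estrogen receptor and hormone-sensing cells 0 passed, and the lowest P was that of Greb1, while Esr1, the estrogen receptor, gave -0.34. Of 12 other progesterone receptor targets 1 passed, the phosphatase gene Dusp1, at -0.66 with an SE of 0.25 (adjusted p = 0.507). Thus 6 of 95 genes passed, beside 4.52% of all probes, and 3 of these 95 with another background correction.

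Promoter sequences of RefSeq (GRCm38.p6) were found for 9 of the 10 genes, as 13 start sites. The 250 bases before the start are shown for the genes with the widest swings between animals, 5′ to 3′ on the strand of the gene, with capitals for the 1 motif match found.
Tnfsf11, chr14:78308044-78308293, minus strand: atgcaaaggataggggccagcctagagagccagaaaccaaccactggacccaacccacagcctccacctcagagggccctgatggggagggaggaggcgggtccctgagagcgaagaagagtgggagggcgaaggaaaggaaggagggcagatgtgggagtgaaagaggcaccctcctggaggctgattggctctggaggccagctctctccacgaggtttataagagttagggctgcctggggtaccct
Calca, chr7:114636358-114636607, minus strand: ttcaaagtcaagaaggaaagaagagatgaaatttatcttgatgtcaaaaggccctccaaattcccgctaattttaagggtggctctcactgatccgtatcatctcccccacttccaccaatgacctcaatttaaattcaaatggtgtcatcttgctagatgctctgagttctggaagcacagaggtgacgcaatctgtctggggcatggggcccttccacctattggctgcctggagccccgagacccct
Areg, chr5:91139349-91139598, plus strand: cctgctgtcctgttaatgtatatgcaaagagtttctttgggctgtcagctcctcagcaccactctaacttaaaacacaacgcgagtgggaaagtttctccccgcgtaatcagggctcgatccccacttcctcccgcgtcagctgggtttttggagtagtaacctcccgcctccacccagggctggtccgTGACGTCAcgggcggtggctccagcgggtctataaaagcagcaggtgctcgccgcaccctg
The searches ran on both strands over 250 bases before to 50 after each start. The progesterone response half-site TGTTCT was in 0 of the 13 windows and in 19.0% of all 32851 promoters. The full palindromic progesterone response element was in 0 of 13 and 0.475%, and the palindromic estrogen response element was in 0 of 13 and 0.0700%. The cAMP response element TGACGTCA was in 1 of 13, that of Areg, with its first base at position -61 from the start, and in 1.79% of all promoters. A match is a description of letters, and progesterone receptor sites often lie outside such windows.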

How the data were processed

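The authors deposited, for each of 7 two-color Agilent arrays, the scanner output with processed intensity values, which Agilent Feature Extraction had background-subtracted, detrended and dye-normalized, with surrogates for dim spots. The labels name version 12.0 and the file headers 11.5.1.1. A deposited series table holds these log2 ratios after each probe was set to a median of 0 across arrays. Positions on the array are mm9 and promoters GRCm38.p6.

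Log2 ratios of processed Cy5 to Cy3 were computed after control spots and flagged outliers had been removed, as means over repeated spots. From 56605 probes, 22321 whose Cy5 did not clear the background throughout either genotype were dropped. Genotypes, from the sample labels, were compared with limma 3.58.1 (R 4.3.3), and the steps were tested on simulated data. The brightest probe kept stood for a gene. Relations with Pgr used exact permutation of 7 arrays.

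The members, lists, tests and alternatives were chosen with earlier results of these data known. The genes named are the members, Pgr, the listed genes past the threshold (or that with the lowest P), and the 5 most like Tnfsf11 and Pgr, for which the brighter dim probe of Tnfsf11 was used. Further receptors and ligands were named after their values were seen. Mean log2 ratios of the remaining marker lists were 2.07 to 3.27 for macrophages, 4.49 to 5.39 for endothelium and 1.16 to 1.79 for fibroblasts. Alternatives were normexp with offset 50 and loess, the series table, 2 other filters, quantile normalization, Cy5 alone, an intensity trend, the methods' t-test, array weights, a replicate block, the median over probes, subtraction of the luminal marker mean, and each array left out.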

Additional observations from a re-analysis of the deposited data

How the results depend on the processing

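No member had an adjusted p under 0.05 under any of the alternatives run, array left out included. Greb1 alone passed an unadjusted P under 0.05 and 1.5-fold, making 1 member in place of 0, with array weights (-1.69), with the replicate block (-1.38), with the luminal marker mean subtracted (-1.08) and without wild-type replicate 3. Leaving out each array gave 0 to 1 members past that threshold and 0 to 1 whose genotypes did not overlap (Id4 without wild-type replicate 2, beside 17.6% of all probes, and Cited1 without PRA transgenic replicate 2, beside 13.6%), and median log2 fold changes from -0.33 to 0.05. The count of members that followed Pgr was 1 with normexp and loess (Areg) and 1 with the luminal mean subtracted (Tnfrsf11a), and 0 with any array left out; the filter on both channels removed Pgr and gave no value. The listed pathway genes past the threshold were 3 with normexp and loess, 3 with the luminal mean subtracted and 4 to 8 with an array left out. Over all probes, 1551 passed P under 0.05 and 1.5-fold in the main setting, 328 with normexp and loess, 995 by the methods' t-test (1 after Benjamini-Hochberg), 3367 of 56605 with no filter, 468 of 24649 with both channels above background, 2443 with the replicate block and 2333 without PRA transgenic replicate 4.

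Signs turned for several members, none of them past a threshold. The log2 fold change of Areg was 0.12 with normexp, 0.11 with quantile normalization, 0.13 with array weights, 1.52 with the replicate block and 0.11 with the luminal mean subtracted, and -1.18 to 1.52 with an array left out. That of Calca was 0.28 with normexp, 1.20 in Cy5 alone and 0.0498 with the CGRP-form probe, an alternative chosen after seeing the data. That of Tnfsf11 was 0.20 with normexp, 0.54 in Cy5 alone, 0.62 with the replicate block and -1.70 to 1.34 with an array left out. With an array left out Wnt4 ran from -0.33 to 0.91, Ccnd1 from -0.28 to 0.50, Tnfrsf11a from -0.43 to 0.0540 and Stat5a from -0.49 to 0.0681. The cause of these turns was not tested. The replicate numbers did not pair the samples: deviations of animals with the same number correlated at 0.10, -0.30 and 0.04, and PRA transgenic replicate 4, alone in its block, adds nothing to that fit. The slide could not be fitted as a block, since there was 1 slide. Dim Cy5 signals limit Tnfsf11 and Areg, and dim Cy3 signals limit the ratios of Tnfsf11, Id4, Pgr and Calca.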

Other observations

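The reference channel, which held the same RNA on every array, had a range of at least 4 on the log2 scale for 137 of 34284 probes. Of these, 11 were among the 1289 probes, of all 34284, whose log2 Cy5 reached 14 on some array. The probe next to that of Calca, chosen after its values were seen, was that of Glycam1, a milk mucin and lymph node gene, with a Cy3 range of 7.67 and a highest log2 Cy5 of 15.3. In 111 of the 137 probes the array that was highest in Cy5 was also the highest in Cy3. The same share over all probes kept was not computed, so whether this is unusual cannot be told. The cause was not tested.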
